A study of Mus musculus with 4 samples.

Results

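The HIN-200 genes, named Ifi200 genes in the mouse, and the related gene Aim2 lie next to each other on chromosome 1 and form a family of interferon-inducible DNA sensors. The family was described here in peritoneal macrophages with and without Dnmt1, the enzyme that copies DNA methylation to the new strand after replication. Members were the rows of the count table whose symbol was Ifi202b, Ifi203, Ifi204, Ifi205, Ifi207, Ifi209, Ifi211, Ifi213, Mndal or Aim2. Of these 10 genes, 9 were among the 13834 genes listed, and all 9 passed the filter on low counts that left 12542 genes. Ifi202b was not listed, and the table lists only genes with a value above 0 in all 4 samples. The family was chosen on the log2 fold change of Ifi213, which was among the largest falls in Dnmt1KO cells, so the genotype contrast of the members is given as a description, and no p-value is given for a member.

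The RNA came from 2 Dnmt1fl/fl and 2 Dnmt1KO samples of macrophages washed out of the abdominal cavity of 10-week-old mice, 3 days after an injection of thioglycolate broth, and kept in culture. All mice carried the floxed Dnmt1 gene, and the labels give the genotype of the Dnmt1fl/fl samples as wt. Dnmt1KO mice also expressed Cre recombinase from the LysM promoter, which is active in myeloid cells and not only in macrophages. Neither the labels nor the methods say whether a sample was 1 mouse or a pool, so the spread between samples may be technical.

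Proteins of this family carry a HIN domain, which binds double-stranded DNA, and most also carry a pyrin domain, through which they join other proteins. AIM2 detects DNA in the cytosol and assembles the inflammasome with the adaptor ASC (Pycard) and caspase-1, which matures IL-1β and IL-18 and opens the gasdermin D pore. Ifi204 has been placed upstream of STING in the interferon response to DNA, and Ifi202b, which lacks the pyrin domain, is an inhibitor of AIM2. In macrophages, interferon raises transcription of these genes through factors such as STAT2 and IRF9, which act at the interferon-stimulated response element (ISRE).

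The promoters of the members were read first, since they show what the genes share besides their place. RefSeq promoters of GRCm38.p6, taken as the 250 bases before a start, were found for 9 of the 10 members, with 11 starts among them. The core of the ISRE was searched on both strands as 2 copies of GAAA with any 2 bases between them. It was present before a start of 6 of these 9 members and in 2.98% of 32851 mouse promoters. These 6 were Ifi203, Ifi205, Ifi207, Ifi211, Ifi213 and Mndal. The exact letters GAAATCGAAA, searched after this result was seen, were present in 13 promoters (0.0396%), of which 7 belonged to genes of the same cluster: Ifi203, Ifi206, Ifi207, Ifi208, Ifi213, Ifi214 and Mndal. The stretches around the match, with the 10 letters in capitals, are shown because they carry this likeness, and in each the gene reads from left to right:

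Ifi213: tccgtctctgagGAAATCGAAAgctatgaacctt

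Mndal: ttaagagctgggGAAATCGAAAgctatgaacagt

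Ifi203: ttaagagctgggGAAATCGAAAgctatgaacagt

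Ifi207: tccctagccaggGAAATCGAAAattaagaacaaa

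Ifi211: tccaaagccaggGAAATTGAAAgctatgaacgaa

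Ifi205: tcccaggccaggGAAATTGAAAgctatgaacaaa

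Ifi209: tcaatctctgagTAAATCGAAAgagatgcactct

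The stretches of Mndal and Ifi203 were identical, and that of Ifi213 was identical to the one before Ifi208, a neighbour in the cluster. Counted from 1 at the first capital, Ifi211 and Ifi205 differed from the shared letters by C6T, a change that removes the CpG, the dinucleotide that Dnmt1 keeps methylated. Ifi209 differed by G1T and so had no match to the ISRE core. The match began 73 bases before the RefSeq start of Ifi213, on the minus strand at chr1:173599336-173599345. It began 35 to 41 bases before the start of Ifi203, Ifi207, Ifi211 and Mndal, and 134 bases before that of Ifi205. The whole window before Ifi213, the member with the largest difference between the genotypes, was chr1:173599273-173599522 on the minus strand, with the ISRE core in capitals:

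Ifi213 promoter: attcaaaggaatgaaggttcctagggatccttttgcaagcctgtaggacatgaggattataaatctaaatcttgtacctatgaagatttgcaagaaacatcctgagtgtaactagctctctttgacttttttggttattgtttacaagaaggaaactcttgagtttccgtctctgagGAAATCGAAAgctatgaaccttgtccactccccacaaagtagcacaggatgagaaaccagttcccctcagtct

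These promoters held few CpG dinucleotides. The members' windows had 0 to 4, while the quartiles over all promoters were 2, 6 and 16, and 44.4% of promoters had 4 or fewer. The promoter of Ifi213 had 2, of which 1 was inside the ISRE match. The motif GAS (TTCNNNGAA, the same on both strands), the element of the response to interferon gamma, was present before 1 of the 9 members, Ifi202b, and in 7.02% of all promoters. A match describes the letters in the window and was not read as a bound site, and DNA methylation of these promoters was not analysed here.

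Expression was measured as estimated counts per gene from 20228071 to 24198943 counts per sample. Levels are given as CPM, a gene's count scaled to a common library size, here after TMM scaling between the libraries, and 3 counts, taken as the floor, came to 0.120 to 0.151 CPM, for counting error only. Dnmt1 itself had 86.6 and 67.0 CPM in the Dnmt1fl/fl samples and 37.0 and 42.7 CPM in the Dnmt1KO samples, a log2 fold change of -0.95 ± 0.24 (SE). The edgeR quasi-likelihood test gave it an adjusted p of 1.00. Dnmt1KO replicate 1 stood apart from the other libraries. The summed level of 12 neutrophil markers, of which 10 were listed, was 929 CPM there against 234 to 337 CPM in the other 3 samples. The 9 that passed the filter were all highest there, while Camp and Ngp were not listed. The summed level of 10 B cell markers was 192 CPM there against 435 to 661 CPM, and 9 of the 10 were lowest there. All 8 markers of large resident peritoneal macrophages were also lowest in this library, at a summed 142 CPM against 302 to 330 CPM. Of the neutrophil markers, S100a8, S100a9, Cxcr2 and Mmp9 were also higher in Dnmt1fl/fl replicate 2 than in Dnmt1fl/fl replicate 1. They had 35.7, 60.5, 12.6 and 66.0 CPM in replicate 2 against 6.92, 5.55, 2.63 and 33.4 CPM. Csf3r, Lcn2, Ltf, Mmp8 and Retnlg were lower in replicate 2 or level with replicate 1. The 10 macrophage markers fixed for the labelled cell type were all listed, and summed to 35967 and 34931 CPM in the Dnmt1fl/fl samples and 18159 and 22102 CPM in the Dnmt1KO samples. Most of this sum was Lyz2, the lysozyme gene whose promoter drives the Cre, at 29531 and 28588 CPM against 11351 and 15745 CPM (-1.10 ± 0.32, SE), and the median log2 fold change of the 10 markers was -0.04.

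Over the whole table of 12542 genes, edgeR's quasi-likelihood test placed 0 (0%) past the adjusted threshold of 0.05 between the genotypes, and so 0 of the 9 members. At an unadjusted p under 0.05 from edgeR, 35 genes were counted over the whole table (0.279%), a share smaller than that threshold itself. DESeq2 called 1 gene after adjustment. With 2 samples per genotype, a count of 0 past the adjusted threshold is not read as no difference. All 9 members had a log2 fold change below 0, as did 49.1% of all genes. At or below -0.2 were 6 of the 9, against 19.7% of all genes. The members' median was -0.25, and that of all genes was 0.00. Both Dnmt1KO values were below both Dnmt1fl/fl values in 1 member, Ifi213, against 8.56% of all genes, and both were above in none, against 8.14%. Because the contrast took part in choosing the family, nothing is read from these shares. The members are neighbours of a family described as interferon-inducible, and most hold sequence shared with other genes. They are therefore not independent counts of 1 effect. In RNA from mixed cells, fewer cells of a type and less RNA per cell cannot be told apart.

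**Figure D1:**
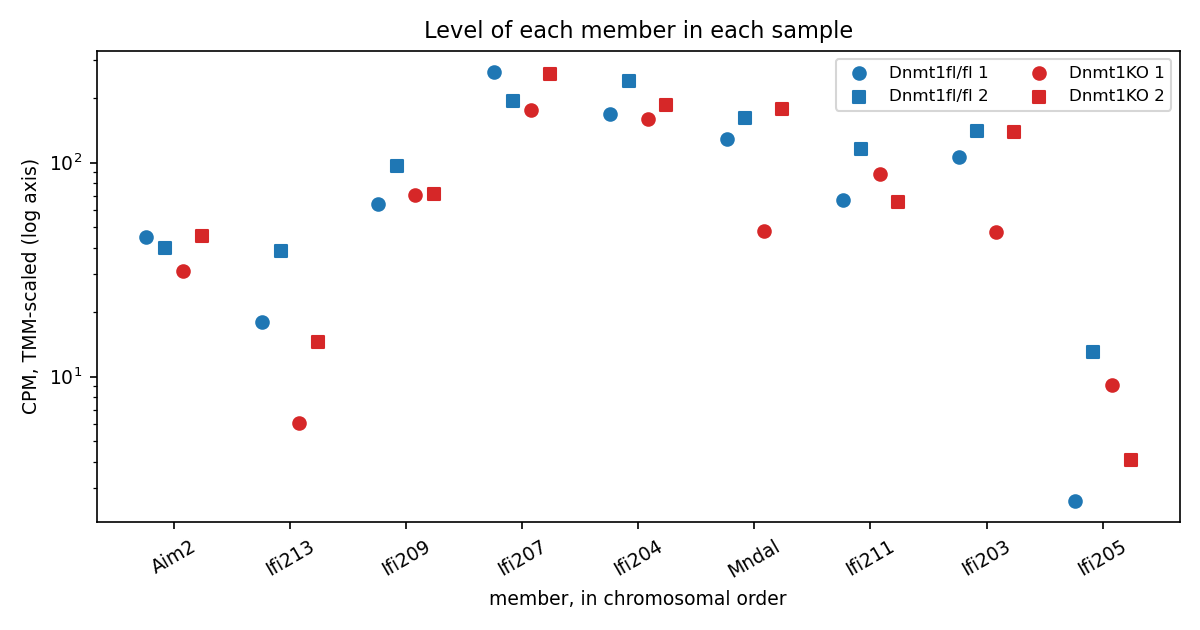
TMM-scaled CPM of each listed member on a log axis, with 1 point per sample. The groups were separate for Ifi213, where both Dnmt1KO points lie below both Dnmt1fl/fl points, and overlapped for the other 8 members.

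Ifi213, also named Pydc4, encodes a pyrin-domain protein of the family whose own role is little described. It had 18.0 and 38.8 CPM in the Dnmt1fl/fl samples and 6.06 and 14.4 CPM in the Dnmt1KO samples. The higher Dnmt1KO value was close to the lower Dnmt1fl/fl value, and the groups did not overlap. The means were 28.4 ± 14.7 CPM and 10.3 ± 5.93 CPM (SD, n = 2 each), a log2 fold change of -1.47 ± 0.54 (SE) and the 18th largest fall of 12542 genes. Replicates of 1 genotype differed 2.15-fold in Dnmt1fl/fl and 2.38-fold in Dnmt1KO, while the genotypes differed 2.77-fold. Leaving out each sample in turn gave -2.23 to -0.81. With groups that do not overlap, no single sample left out could turn the sign, so only the size is informative.

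Aim2, the DNA sensor of the inflammasome, had 44.8 and 39.8 CPM in the Dnmt1fl/fl samples and 31.1 and 45.2 CPM in the Dnmt1KO samples. The highest and the lowest value were both in Dnmt1KO cells, so the groups overlapped. Its log2 fold change was -0.15 ± 0.26 (SE), and it was 0.09 without Dnmt1KO replicate 1, the library with high neutrophil markers.

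Ifi204, the sensor placed upstream of STING, had 169 and 241 CPM in the Dnmt1fl/fl samples and 160 and 186 CPM in the Dnmt1KO samples (-0.24 ± 0.27, SE). The value of Dnmt1fl/fl replicate 2 was above the other 3, and without that sample the log2 fold change was 0.04. Ifi209 had 64.1 and 96.6 CPM against 70.7 and 71.1 CPM (-0.18 ± 0.27), and Ifi211 had 67.0 and 115 CPM against 88.5 and 65.3 CPM (-0.25 ± 0.34). Both again were highest in Dnmt1fl/fl replicate 2, and without it their log2 fold changes were 0.15 and 0.20. Ifi205, a gene linked to control of the adaptor ASC, had 2.63 and 13.1 CPM in the Dnmt1fl/fl samples and 9.09 and 4.07 CPM in the Dnmt1KO samples. Its replicates differed more than its genotypes, 4.97-fold within Dnmt1fl/fl, and its log2 fold change of -0.26 ± 0.79 was 1.33 without Dnmt1fl/fl replicate 2.

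Mndal, named for its likeness to a myeloid nuclear antigen, and the overlapping gene Ifi203 shared another pattern. Mndal had 128 and 162 CPM in the Dnmt1fl/fl samples, 47.7 CPM in Dnmt1KO replicate 1 and 177 CPM in Dnmt1KO replicate 2. Ifi203 had 106 and 139.8 CPM, then 47.3 and 139.4 CPM. In both genes 1 Dnmt1KO library was below all others, while the other Dnmt1KO library was level with or above the Dnmt1fl/fl samples. The log2 fold changes were -0.37 ± 0.59 for Mndal and -0.40 ± 0.51 for Ifi203, and without Dnmt1KO replicate 1 they were 0.29 and 0.18. With limma-voom they were -0.64 and -0.58, and with the replicate number as a block -0.65 and -0.58. Without Dnmt1KO replicate 2 they were -1.60 and -1.38. In that fit the Dnmt1KO genotype stood on the single library with low B cell and high neutrophil markers. The part of these cells in the values of Mndal and Ifi203 was not tested.

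Ifi207 was the member nearest to no difference. It had 264 and 195 CPM in the Dnmt1fl/fl samples and 176 and 259 CPM in the Dnmt1KO samples, with a log2 fold change of -0.08 ± 0.30 (SE). Each genotype held 1 high and 1 low value, and the sign turned when Dnmt1fl/fl replicate 1 or Dnmt1KO replicate 1 was left out (0.16 and 0.17).

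**Figure D2:**
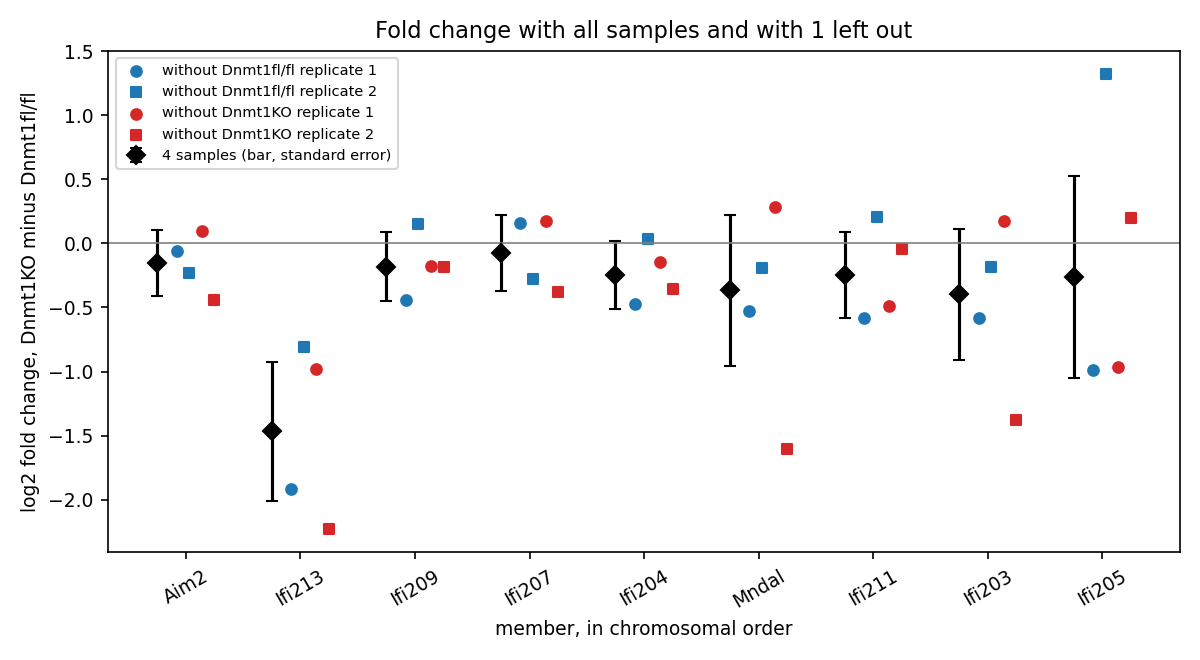
Log2 fold change of Dnmt1KO over Dnmt1fl/fl for each listed member, with bars of 1 SE and small marks for the values with each sample left out in turn. The marks of Ifi213 run from -2.23 to -0.81, below 0 by construction since its groups do not overlap, and those of Ifi205 run from -0.99 to 1.33.

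The members thus fell into a few profiles across the 4 samples. Likeness was measured as the Euclidean distance between log2 CPM centred on each gene's mean. The closest pairs were Ifi209 with Ifi204 (0.18), Ifi207 with Aim2 (0.21), Mndal with Ifi203 (0.25) and Ifi209 with Ifi211 (0.35). The farthest was Mndal with Ifi205 (2.65). With only 4 samples these distances describe the libraries and carry no test. Of the 9 members, 6 were highest in Dnmt1fl/fl replicate 2, as were 15.6% of all genes, and 6 were lowest in Dnmt1KO replicate 1, as were 39.6% of all genes. Between the Dnmt1KO replicates, Mndal differed 3.72-fold and Ifi203 2.95-fold, and 3.51% and 5.53% of all genes were at least as much higher in replicate 2 than in replicate 1. Between the Dnmt1fl/fl replicates, the 4.97-fold difference of Ifi205 was matched or passed, in that direction, by 0.255% of all genes.

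Over the whole table, the genes with the profile nearest to that of Ifi213 were Mlxipl (distance 0.30), Serpinb10 (0.38), Bcam (0.42), Oas2 (0.45) and Slc9a3r2 (0.56). Oas2, an interferon-induced sensor of double-stranded RNA, had 55.2 and 90.8 CPM against 21.2 and 49.0 CPM. Nearest to Aim2 were Ncoa3, Zfp280b, Asah1, Rabgap1 and Ralgapb, at distances of 0.01 to 0.03.

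Levels between members were compared per kilobase of annotated exon, as the mean over the 4 samples of CPM per kilobase. Ifi204 was highest at 82.2 (69.6 to 105 over the samples), followed by Ifi207 at 65.4 (51.4 to 77.2), Mndal at 62.4 (23.1 to 85.9) and Ifi211 at 47.1 (36.6 to 64.7). Then came Ifi209 at 22.0 (18.6 to 28.1), Ifi203 at 21.4 (9.38 to 27.7) and Aim2 at 14.2 (10.9 to 15.9). Ifi205 at 4.47 (1.63 to 8.11) and Ifi213 at 3.88 (1.22 to 7.79) were lowest. The ranges of neighbours in this order overlapped except between Ifi211 and Ifi209 and between Aim2 and Ifi205. The order of the lowest 2 differed by genotype. Ifi213 had 5.70 and Ifi205 4.87 CPM per kilobase in Dnmt1fl/fl cells, and 2.06 and 4.08 in Dnmt1KO cells. So did the order of Mndal and Ifi207, at 70.3 and 67.1 in Dnmt1fl/fl cells and 54.5 and 63.6 in Dnmt1KO cells. Ifi203 and Ifi209 also changed places, at 24.4 and 23.4, then 18.5 and 20.6. All these differences were within the spread of the replicates.

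The family spans 680932 bases of chromosome 1 in GRCm38, from 173350879 at the start of Aim2 to 174031810 at the end of Ifi205. GENCODE M21 places 22 genes within or across these ends, of which 14 were listed, Cadm3 among them. Ifi213 is at 173566283 to 173599274 on the minus strand. Mndal, at 173849126 to 173942491 on the same strand, covers the 16702 bases of Ifi211 and overlaps Ifi203 by 22085 bases. The sources used here do not say how a read that fits more than 1 gene was counted, and sequence is shared within the family. Of the 100-base stretches of its transcripts, Ifi211 shared 56.9% with other genes, Ifi209 16.9%, Ifi205 15.0% and Ifi204 10.7%. The others shared 6.38% (Mndal), 3.3% (Ifi213), 2.84% (Ifi203), 0.79% (Ifi207) and 0% (Aim2). The deposited values were whole numbers in all 4 samples for Aim2, in 2 of 4 for Ifi213 and in none for the other 7 members. The values of all listed members except Aim2 are therefore uncertain as to which gene a read came from, those of Ifi211 with the most shared sequence. Aim2 overlaps Cadm3 on the opposite strand by 16817 bases, and Cadm3 had 18 and 19 counts in the Dnmt1fl/fl samples and 6 and 12 counts in the Dnmt1KO samples. Both Dnmt1KO values of Cadm3 were thus below both Dnmt1fl/fl values, at a log2 fold change of -0.99 ± 0.62 (SE) and an adjusted p of 1.00 from edgeR.

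The other listed HIN-200 genes of the cluster were low, and all 4 had a log2 fold change below 0, with a median of -0.60. Without Dnmt1fl/fl replicate 2 this median was -0.20, without Dnmt1KO replicate 1 it was -0.38, and with either of the other samples left out it was -1.01. Ifi206 had 5.85 and 12.7 CPM against 6.61 and 5.30 CPM (-0.64 ± 0.44, SE). Ifi208 had 1.66 and 4.15 CPM against 2.12 and 2.16 CPM (-0.44 ± 0.54). Ifi214 had 1.36 and 2.11 CPM against 0.606 and 1.40 CPM (-0.79 ± 0.61). The values of the genotypes overlapped in all of these. The pseudogene Ifi203-ps, which lies beside Mndal, had 9.94 and 11.5 CPM against 1.72 and 12.8 CPM (-0.56 ± 0.83) and so the profile of Mndal and Ifi203, low in Dnmt1KO replicate 1 alone. None of the 4 passed the adjusted threshold. Apart from Cadm3, which extends past the start of Aim2, the nearest tested genes outside the cluster lay 717.9 to 1589 kilobases away. Slamf8 (-0.26 ± 0.28), Dusp23 (0.48 ± 0.26), Fh1 (0.20 ± 0.20) and Kmo (-0.00 ± 0.44) each had an adjusted p of 1.00 from edgeR.

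**Figure D3:**
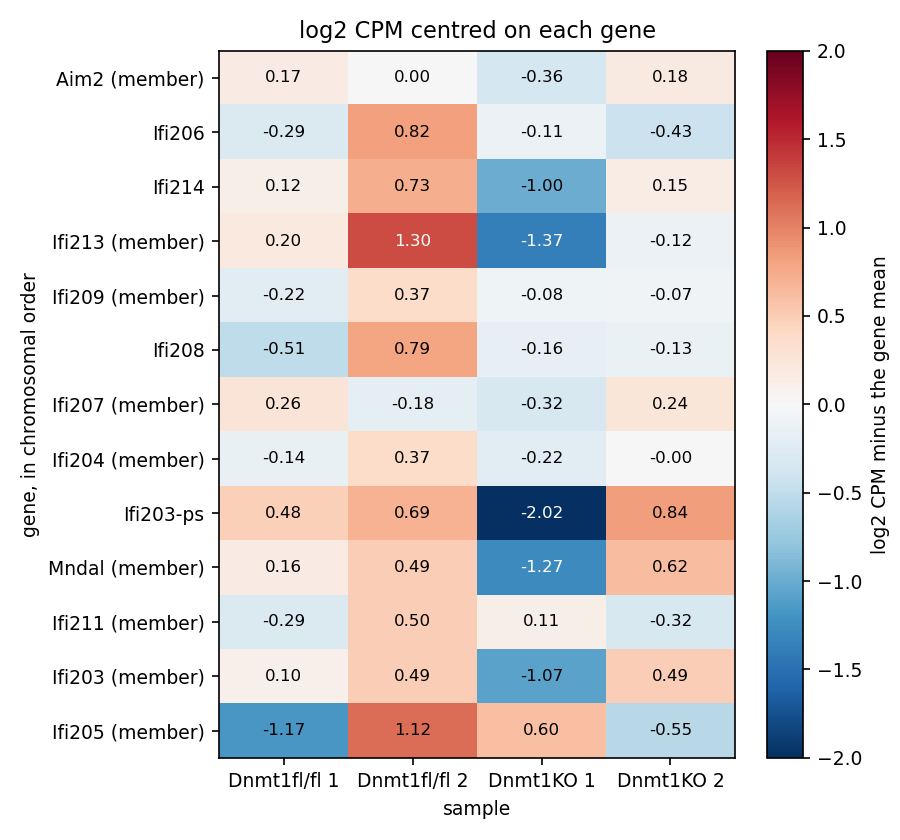
Log2 CPM of the 13 listed genes of the cluster, Aim2 among them, in the order of their places on chromosome 1, less the gene's own mean over the 4 samples. Dnmt1KO replicate 1 is low for Mndal, Ifi203, Ifi203-ps, Ifi213 and Ifi214. Dnmt1fl/fl replicate 2 is high for Ifi205, Ifi206, Ifi208, Ifi213 and Ifi214.

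The partners of AIM2 in the inflammasome were next compared. Of 10 tested, 0 passed the adjusted threshold in either direction, 7 had a log2 fold change below 0 and the median was -0.07 (0.07 without Dnmt1KO replicate 1). The adaptor Pycard (0.20 ± 0.30, SE) and the protease Casp1 (-0.13 ± 0.26) differed by less than their error. The same was true of the pore protein Gsdmd (-0.07 ± 0.22), the sensor Nlrp3 (-0.16 ± 0.25) and the cytokines Il1b (-0.07 ± 0.88) and Il18 (-0.11 ± 0.31). Casp4, the caspase that senses cytosolic lipopolysaccharide, had 23.1 and 27.5 CPM in the Dnmt1fl/fl samples and 5.0 and 28.0 CPM in the Dnmt1KO samples. Like Mndal and Ifi203, it was low in Dnmt1KO replicate 1 alone.

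Of 20 tested genes of the cGAS-STING pathway, the other route from cytosolic DNA to interferon, 0 passed in either direction, 10 were below 0 and the median was -0.04 (0.01 without Dnmt1KO replicate 1 and -0.17 without Dnmt1KO replicate 2). Both Dnmt1KO samples were below both Dnmt1fl/fl samples in 2 of the 20, Cgas and Ikbke, and above in 2, Sting1 and Rnaseh2b, beside 8.56% and 8.14% of all genes. The DNA sensor Cgas had 12.4 and 13.6 CPM against 9.19 and 12.2 CPM, a log2 fold change as large as its error (-0.28 ± 0.28). The adaptor Sting1 had both Dnmt1KO values above both Dnmt1fl/fl values, by 0.07 ± 0.20. The log2 fold changes of the kinase Tbk1 (-0.07 ± 0.22) and the factor Irf3 (-0.14 ± 0.21) were smaller than their errors. Irf7, the interferon-induced factor that amplifies the response, had 76.3 and 248 CPM against 205 and 71.8 CPM (-0.23 ± 0.69). It was high in Dnmt1fl/fl replicate 2 and Dnmt1KO replicate 1, that is, in 1 sample of each genotype, as were Ifi205 and Ifi211. The largest absolute values in this list were those of Rnaseh2c (0.45 ± 0.30) and Rnaseh2b (0.43 ± 0.30), subunits of the nuclease that removes ribonucleotides from DNA, and of the kinase Ikbke (-0.41 ± 0.28).

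Among 17 interferon receptors and transcription factors, 0 passed in either direction and 9 were below 0, with a median of -0.07 (0.04 without Dnmt1fl/fl replicate 2). Both Dnmt1KO samples were below both Dnmt1fl/fl samples in 2 of the 17, Ifnar1 and Jak2, and above in 1, Ifnar2. Over all genes these shares were 8.56% and 8.14%. The receptor chains Ifnar1 (-0.17 ± 0.22) and Ifnar2 (0.26 ± 0.24) and the receptor kinase Tyk2 (-0.25 ± 0.39) stood beside the factors Stat2 (-0.31 ± 0.29) and Irf9 (-0.07 ± 0.23). Irf8, a factor of the macrophage lineage, had 0.05 ± 0.23. Of 48 tested interferon-stimulated genes outside the family, 0 passed, 33 were below 0 and the median was -0.19. This median turned to 0.16 without Dnmt1fl/fl replicate 2, and was -0.46 without Dnmt1fl/fl replicate 1, -0.36 without Dnmt1KO replicate 1 and -0.17 without Dnmt1KO replicate 2. Both Dnmt1KO samples were below both Dnmt1fl/fl samples in 3 of the 48, beside 8.56% of all genes, and 29 were highest in Dnmt1fl/fl replicate 2, beside 15.6% of all genes. The largest absolute log2 fold changes were those of Oas2 (-1.05 ± 0.46), the chemokine Cxcl10 (-0.61 ± 0.70) and the antiviral GTPase Mx1 (-0.60 ± 0.36).

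**Figure D4:**
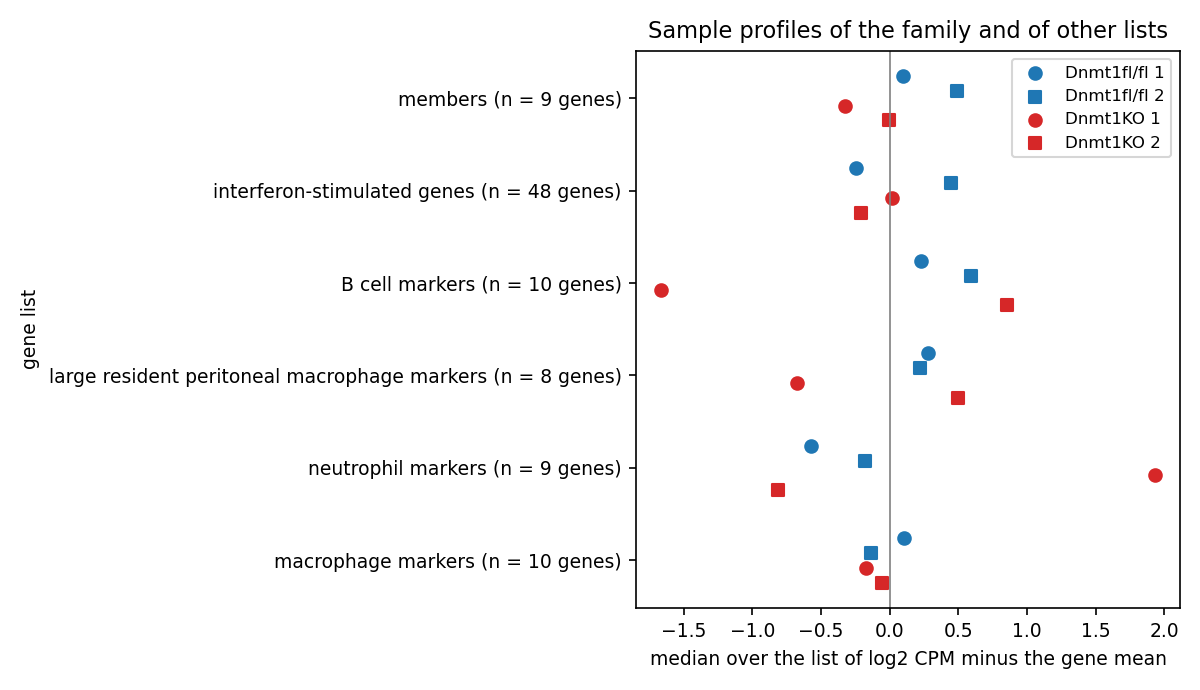
Median over each list of log2 CPM less the gene's own mean, for the 4 samples. The members (0.10, 0.49, -0.32 and -0.00) and the interferon-stimulated genes (-0.24, 0.44, 0.02 and -0.21) are both highest in Dnmt1fl/fl replicate 2, and the B cell markers have their low value (-1.66) and the neutrophil markers their high value (1.93) in Dnmt1KO replicate 1.

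The interferon-stimulated genes and the members had their highest median in the same sample, Dnmt1fl/fl replicate 2, at 0.44 and 0.49. The monocyte markers (0.40) and the T and NK cell markers (0.32) were also highest there, against -0.40 and -0.36 in Dnmt1fl/fl replicate 1. In Dnmt1KO replicate 1 the medians of the interferon-stimulated genes and the members were 0.02 and -0.32. The B cell markers had a median of -1.66 in that library, the resident macrophage markers -0.67, the dendritic cell markers -0.50 and the neutrophil markers 1.93. Of the 8 dendritic cell markers, 7 were lowest there, at a summed 26.5 CPM against 45.2 to 57.7 CPM in the other samples. The part of these cells in the members' values was not tested. Without Dnmt1KO replicate 1, the median log2 fold change of the members was -0.14, and without Dnmt1fl/fl replicate 2 it was -0.19. The smallest two-sided p that an exact permutation test can give for 1 gene with 2 samples against 2 is 0.333.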

How the data were processed

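The authors deposited estimated counts per gene, not normalized, for 2 Dnmt1fl/fl and 2 Dnmt1KO samples. The submitters' processing notes name HISAT2 2.0.5, featureCounts 1.5.0-p3, DESeq2 1.20.0 and the build mm10, while the annotation is not given in the sources used here. A shorter table that repeats rows of the whole one was not used. Counts were rounded, filtered with filterByExpr, scaled with TMM and compared with the quasi-likelihood test of edgeR 4.0.16 (R 4.3.3), two-sided, with Benjamini-Hochberg adjustment over 12542 genes, after a check on simulated data. The common dispersion gave a coefficient of variation of 28.9% between replicates. Log2 CPM used a prior count of 1, and 8 repeated symbols were kept as separate rows.

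The members and gene lists were chosen with earlier results of these data known. All members were named, with the central genes and the 3 largest absolute log2 fold changes of each pathway list, the listed genes of the cluster with 2 neighbours on each side, and the 5 genes nearest in profile to Ifi213 and to Aim2. The result for one gene under this rule is not reported here. In the list of other cluster genes, 4 of 8 names were synonyms of listed genes. Alternatives were a replicate block, DESeq2 1.42.0, limma-voom (limma 3.58.1), other scalings and filters, and leaving out each sample.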

Additional observations from a re-analysis of the deposited data

How the results depend on the processing

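The labels number the samples of each genotype 1 and 2, and same-numbered samples deviated in opposite directions (r = -0.35 across 12542 genes, which are not independent replicates), so the numbers were not taken to pair them. With the replicate block, 0 genes were called, as without it, and the members' median log2 fold change was -0.21. The crossed pairing, chosen after seeing the data, gave 3 called genes, and DESeq2 gave 1, none of them a member. Leaving out each sample in turn gave 0 to 1061 called genes, 0 to 3 of 9 members past the adjusted threshold, 4 to 6 of 9 members not overlapping between the genotypes, beside 40.1% to 82.8% of all genes, and 0 to 11 of 99 called list genes. With 1 sample in a group, that sample was assumed to vary like the other genotype, and fewer samples make separate groups more frequent by construction. The high values were those without Dnmt1KO replicate 2, a fit that called 8.32% of 12754 genes and where the Dnmt1KO group is the single library with high neutrophil markers. Nothing about the members is read from these calls, since the same contrast chose the family. There 6 members did not overlap, beside 82.8% of all genes. Without Dnmt1fl/fl replicate 1 it was also 6, beside 40.1%. The members' median was -0.52 to -0.14 with a sample left out and -0.34 with no scaling beyond library totals, which moved the median of all genes to -0.06. With the block, Ifi205 was 0.03, Mndal -0.65 and Ifi203 -0.58. Other scalings and filters changed no member's sign. The 2 samples per genotype limit what these counts can show, and members below 10 CPM rest on fewer reads.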

Other observations

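Genes of the interferon response did not share 1 profile over the 4 samples, as values chosen after they were seen show. Isg15, a ubiquitin-like protein made on interferon signalling, had 4.53 and 12.2 CPM in the Dnmt1fl/fl samples and 13.1 and 3.98 CPM in the Dnmt1KO samples, high in 1 sample of each genotype as Irf7 and Ifi205 were. Guanylate-binding proteins, GTPases that act on intracellular pathogens and release their DNA to AIM2, were instead low in Dnmt1KO replicate 1 and high in Dnmt1KO replicate 2. Gbp2 had 87.6 and 65.7 CPM against 37.1 and 161 CPM, and Gbp7 had 40.8 and 36.8 CPM against 12.7 and 74.1 CPM. Gbp3 had 57.1 and 56.3 CPM against 23.1 and 81.8 CPM, and Gbp5 had 11.4 and 6.22 CPM against 2.22 and 15.0 CPM. Each of these genes had overlapping genotypes. The B cell markers (9 of 10 lowest in Dnmt1KO replicate 1 and 10 of 10 highest in Dnmt1KO replicate 2) had the same profile. So did the dendritic cell markers (7 of 8 and 6 of 8). Of the 8 large resident peritoneal macrophage markers, 8 were lowest in Dnmt1KO replicate 1 and 4 highest in Dnmt1KO replicate 2. For the 10 macrophage markers these counts were 6 and 4, beside 39.6% and 26.6% of all genes. The part of these cells in the values was not tested.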
